A study of Mus musculus with 4 samples.

Results

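The A, B, D and E cyclins are the families of regulatory proteins that switch on the cyclin-dependent kinases of the cell division cycle. The mouse genes of these families, *Ccna1*, *Ccna2*, *Ccnb1*, *Ccnb2*, *Ccnb3*, *Ccnd1*, *Ccnd2*, *Ccnd3*, *Ccne1* and *Ccne2*, were taken by symbol, and all 10 were among the 32285 genes counted in single cells of the postnatal day 15 testis. Libraries came from 4 C57BL/6N pups, 2 wild-type and 2 *Meioc*-null (allele *Meioc* tm1.1Dpc), and 1 testis was dissociated per pup. The 2 batches each held 1 littermate of either genotype, so that wild-type 1 and *Meioc*-null 1 were littermates, as were wild-type 2 and *Meioc*-null 2. All pups, of either genotype, were heterozygous for *Hspa2* tm1Dix and homozygous for a *ROSA26* tdTomato reporter whose stop cassette was intact. The interstitial supernatant was discarded at dissociation, which limits what the libraries say about interstitial cells. MEIOC acts with YTHDC2 and RBM46 on germ-cell transcripts around the entry into meiosis, and the comparison of genotypes asks how transcript abundance depends on it at each stage.

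D cyclins act with CDK4 and CDK6 in G1, in response to growth signals. E cyclins act with CDK2 at the G1/S transition. Cyclin A acts with CDK2 in S phase and with CDK1 in G2, and B cyclins act with CDK1 to drive the entry into M phase, after which the anaphase-promoting complex marks cyclins A and B for destruction. Spermatogonia divide by mitosis several times, pass through a last S phase as preleptotene spermatocytes and then enter a long meiotic prophase, so G1/S and G2/M cyclins are called on at separate times in this lineage. Cyclin A1 is the germline A cyclin, known for its role at the end of male meiotic prophase, and cyclin B3 is known from meiosis.

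After the filters of the study (more than 1000 detected genes and less than 10% mitochondrial unique molecular identifiers, UMIs) and removal of likely doublets, the wild-type libraries kept 5644 and 7505 cells and the *Meioc*-null libraries 6554 and 6522, with library medians of 11698.5 to 14446 UMIs per cell. Any pair of libraries shared 7 to 16 cell barcodes, at most 0.284% of a library. Wild-type cells were clustered without the cyclins or the listed S phase and G2/M phase genes, and *Meioc*-null cells were placed among them. Every *Meioc*-null cell thus took a wild-type cluster, and no cluster of mutant cells alone could appear. The paper describes such a cluster of *Meioc*-null spermatocytes, mostly in G2/M phase. Where those cells fell here was not tested, so cells of 1 cluster need not be at the same stage in both genotypes. Cluster 1 was undifferentiated-spermatogonia-like (6 of 7 markers detected). Clusters 2, 3 and 5 were differentiating-spermatogonia-like (7 of 7), cluster 7 was preleptotene-spermatocyte-like (5 of 5), clusters 9 and 10 were early-spermatocyte-like (8 and 7 of 8) and cluster 11 was pachytene-spermatocyte-like (5 of 7). Cluster 4 was a germ-cell cluster of few UMIs per cell, and in *Meioc*-null 2 its cells also held macrophage markers, whose 6 genes summed to 2821 CPM against 7.55 to 69.9 CPM in the other libraries, with germ-cell markers at 1213 CPM against 1750 to 1942 CPM. Their part in the values of cluster 4 was not tested. Cluster 6, led by *Esx1* and *Rec8*, and cluster 8, which had *Prdm9* among its leading genes, lay on either side of cluster 7 and were left unnamed with cluster 4. Sertoli-like, peritubular-myoid-like, interstitial-stroma-like and Leydig-like cells were found, and endothelium and macrophages had no cluster of their own. Cluster 11 held 262 and 296 wild-type cells and no *Meioc*-null cells, so no genotype comparison exists there.

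The promoters of the B cyclins are shown because each of the 3 members was most abundant at another stage. RefSeq promoter sequences (GRCm38.p6) were at hand for 6 of the 10 cyclins. The 150 bases before the annotated start are printed 5′ to 3′ on the strand of the gene, the minus strand for all of them, and capitals mark CCAAT, the box bound by NF-Y, and TTTGAA or TTTAAA, the core of the CHR element of G2/M genes. The starts are those of RefSeq, and the *Ccnb1* stretch lies partly within the gene as the GENCODE annotation used for gene positions places it. The stretch of *Ccnb1* is chr13:100786487-100786636, that of *Ccnb2* is chr9:70421555-70421704 and that of *Ccnb3* is chrX:7041620-7041769.
Ccnb1: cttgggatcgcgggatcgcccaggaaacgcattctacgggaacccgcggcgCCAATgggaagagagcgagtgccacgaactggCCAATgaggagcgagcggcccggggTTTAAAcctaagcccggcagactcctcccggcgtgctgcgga
Ccnb2: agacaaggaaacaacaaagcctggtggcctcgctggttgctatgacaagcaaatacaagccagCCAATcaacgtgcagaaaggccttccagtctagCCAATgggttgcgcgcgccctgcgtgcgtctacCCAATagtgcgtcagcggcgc
Ccnb3: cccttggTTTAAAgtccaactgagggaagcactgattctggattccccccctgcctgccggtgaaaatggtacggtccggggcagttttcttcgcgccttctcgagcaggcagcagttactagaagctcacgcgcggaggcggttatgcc

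Over the full 250 bases before the start, searched on both strands, *Ccnb1* held 2 CCAAT matches, 99 and 67 bases before the start, and 1 TTTAAA, 42 bases before it. By the GENCODE position, which ends *Ccnb1* at 100786570, the CCAAT at 67 bases and the TTTAAA lie within the gene. The CCAAT at 99 bases lies before it. *Ccnb2* held 3 CCAAT matches, at 87, 54 and 21 bases, and a TTTGAA that lies upstream of the printed stretch, at 167 bases. It had 1 more TTTGAA match past the start, outside these 250 bases and the printed stretch. *Ccnb3* held no CCAAT match and 2 TTTAAA matches, at 185 and 143 bases, of which the nearer is printed. Of all 32851 RefSeq promoter windows, 33.9% held at least 1 CCAAT, 10.1% at least 2 and 2.79% at least 3, while 16.0% held a TTTGAA and 12.1% a TTTAAA. Of the other cyclin promoters, *Ccna1* held 1 CCAAT at 107 bases, *Ccne1* a TTTAAA at 15 bases, and 1 of 2 *Ccnd3* promoters held a CCAAT at 108 bases. These are matches of letters and not measured binding.

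**Figure D1:**
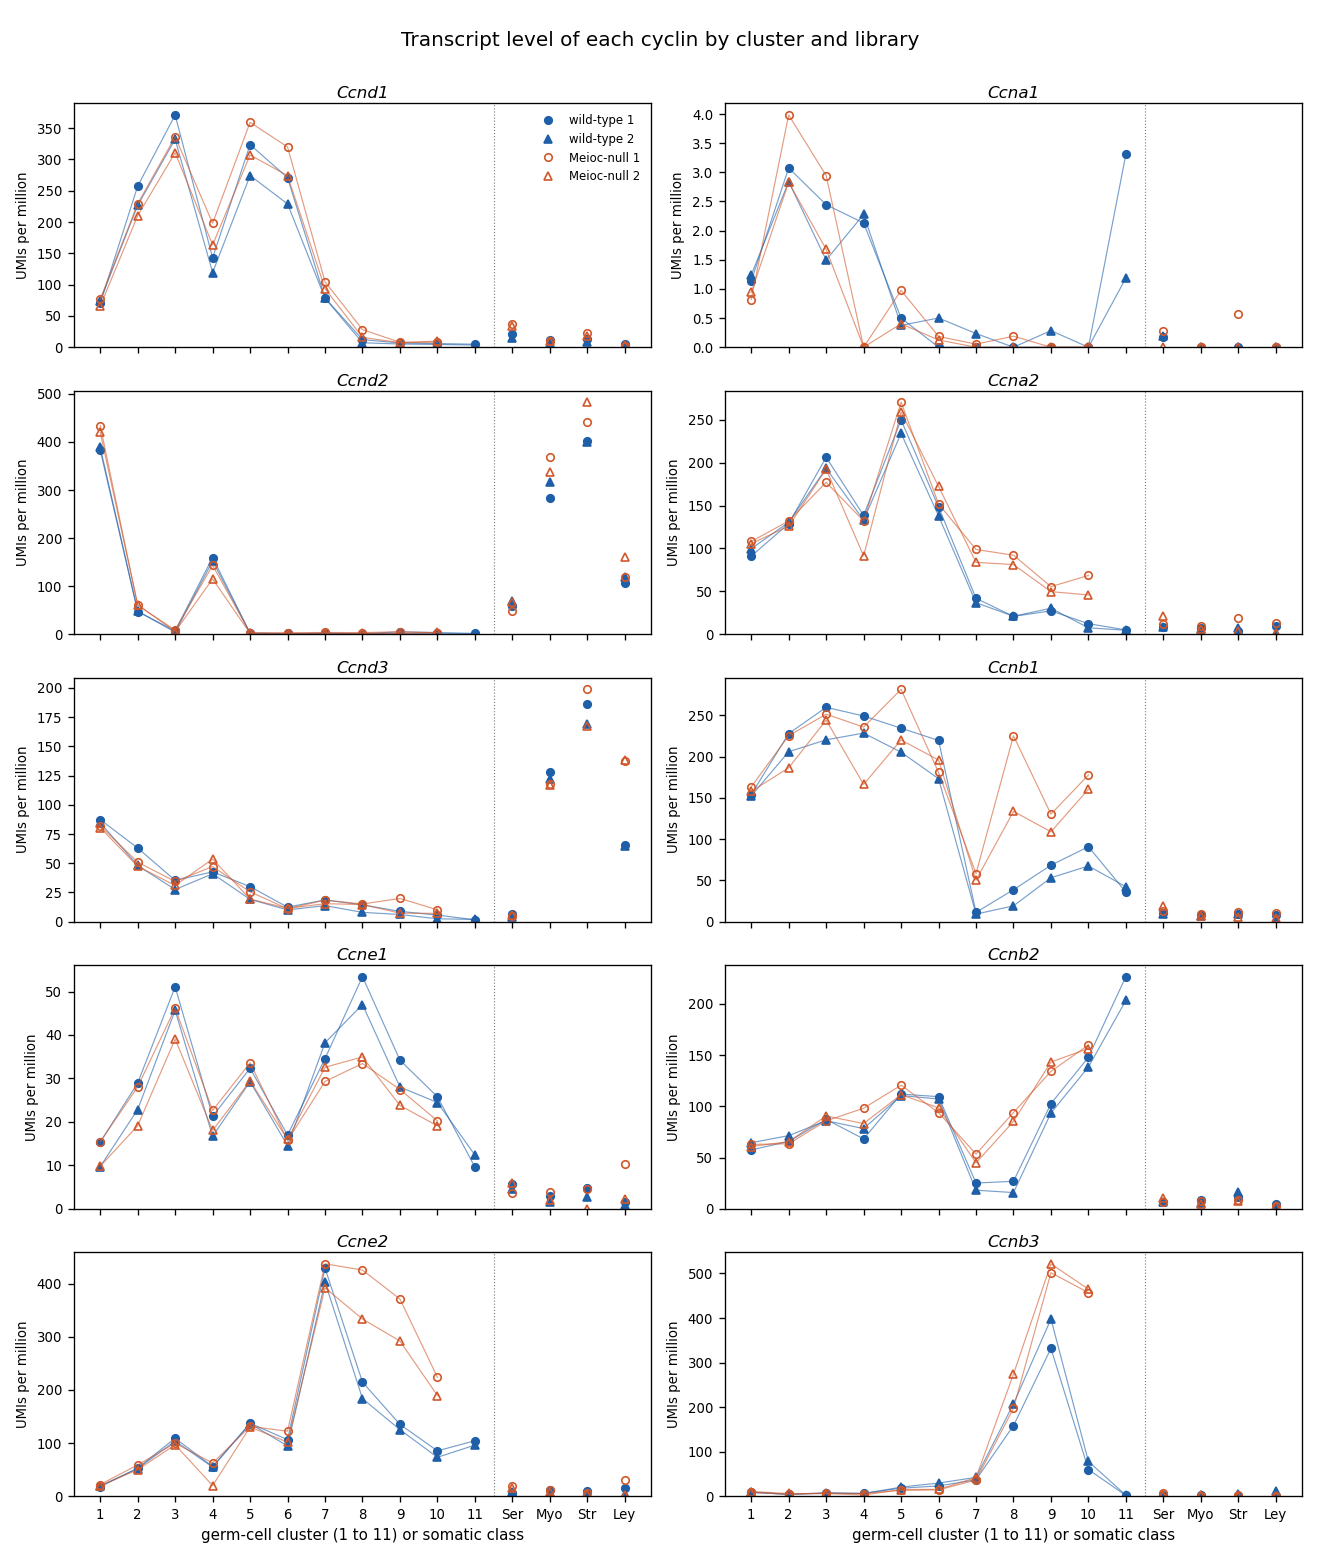
Abundance of the 10 cyclins by cluster or cell class in the 4 libraries, in UMIs of the gene per 1000000 UMIs of that library and cluster (CPM), each panel with its own scale that starts at 0. Each point is 1 library, and Ser, Myo, Str and Ley are the Sertoli-like, myoid-like, stroma-like and Leydig-like cells. *Ccna2*, *Ccnb1* and *Ccnd1* are highest in clusters 2 to 6, *Ccne2* in cluster 7, *Ccnb3* in cluster 9 and *Ccnb2* in cluster 11.

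*Ccna2* and *Ccnb1* followed the mitotic stages, as the plot of abundance by cluster shows. Levels are given as CPM, the UMIs of a gene per 1000000 UMIs of the library and cluster. They compare clusters for 1 gene and not 1 gene with another, because 3′ tags are captured unequally between genes. *Ccna2* (chromosome 3, 36564865 to 36572150), the somatic-type A cyclin of S phase and G2, stood at 91.1 and 99.7 CPM in wild-type cluster 1, rose to 249.6 and 234.0 CPM in cluster 5 and stood at 148 and 138 CPM in cluster 6. In the preleptotene-like cluster 7 it was at 42.0 and 36.9 CPM, 16.3% of its highest mean, and in the pachytene-like cluster 11 at 5.31 and 4.84 CPM. The cluster 11 level lay in the range of the Sertoli-like, myoid-like and stroma-like cells, 4.33 to 8.86 CPM.

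*Ccnb1* (chromosome 13, 100778650 to 100786570), the B cyclin required for mitosis, had its highest wild-type mean in cluster 3, at 259.9 and 220.4 CPM, which overlapped clusters 2, 4 and 5 but not cluster 6. Cluster 6 held 219.7 and 173.3 CPM. It was lowest among the germ-cell clusters in cluster 7, at 11.3 and 9.14 CPM, which overlapped the Sertoli-like cells at 10.7 and 9.65 CPM. It was higher again after that point, with 68.4 and 53.2 CPM in cluster 9, 90.9 and 67.5 CPM in cluster 10, which overlapped, and 35.8 and 42.3 CPM in cluster 11. The same trough showed with every cell thinned to 3000 UMIs, where 3.03 and 1.87% of wild-type cluster 7 cells had a *Ccnb1* UMI (unthinned 11.7 and 8.0%). In cluster 10 the thinned share was 21.4 and 16.4% (unthinned 67.4 and 54.7%). The myoid-like cells, as a background for free RNA, had 2.73 and 0.726% (unthinned 7.00 and 5.41%, at medians of 9763 and 10081 UMIs), so the cluster 7 share was near background.

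**Figure D2:**
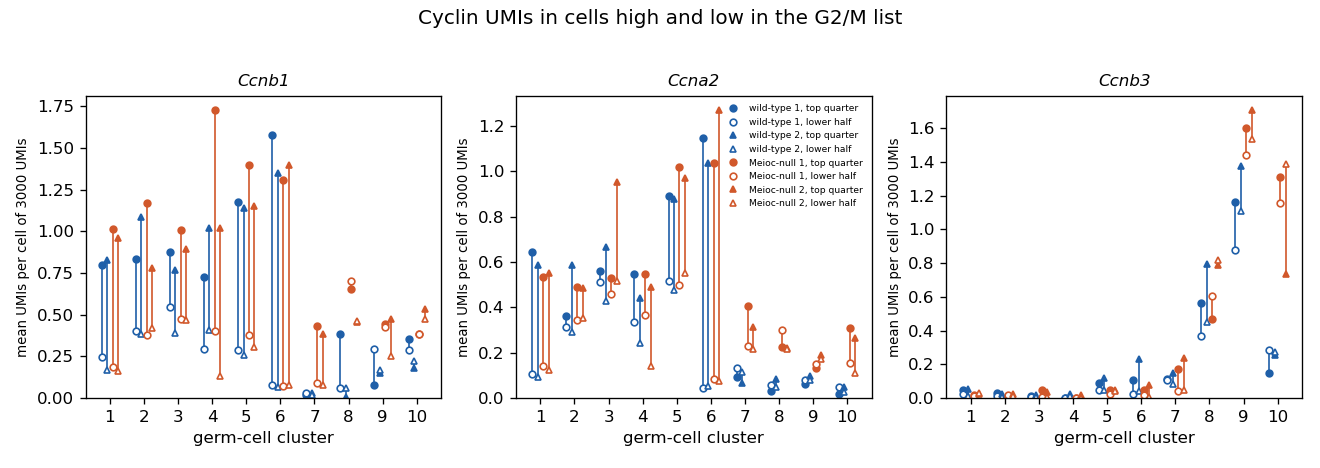
Mean UMIs per cell of *Ccnb1*, *Ccna2* and *Ccnb3*, after each cell was thinned to 3000 UMIs, in the top 25% (filled) and bottom 50% (open) of cells by UMIs of the listed G2/M phase genes, by germ-cell cluster and library, with a line joining the pair. The ratio of *Ccnb1*, top over bottom, is 17.9 to 20.6 in cluster 6 and between 4.77 and 4.82 in *Meioc*-null cluster 7.

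Within clusters, the mitotic cyclins were unevenly spread over cells. Cells were ordered by their UMIs of 47 listed G2/M phase genes, a list that holds no cyclin, after each cell was thinned to 3000 UMIs. In cluster 6, *Ccnb1* averaged 1.58 and 1.35 UMIs per cell in the top 25% of wild-type cells and 0.0774 and 0.0658 in the bottom 50%, ratios of 20.4 and 20.6. The *Ccna2* ratios there were 24.7 and 19.3, and those of *Ccnb2* were 8.68 and 11.9. *Ccnd1*, the G1 cyclin, had ratios of 1.35 and 1.31 and *Ccne2*, the G1/S cyclin, 0.625 and 0.868 in the same cells. Among wild-type cluster 6 cells with a *Ccna2* UMI, 62.8% of 145 and 57.8% of 109 also had a *Ccnb1* UMI, against 28.1 and 26.0% of all cells there. In cluster 1 the *Ccnb1* ratios were 3.29 and 4.87, and in cluster 3 they were 1.60 and 1.95, so of these clusters the contrast between cells was widest in cluster 6.

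*Ccnb2* and *Ccnb3* had their highest levels in meiotic clusters, but not in the same ones. *Ccnb2* (chromosome 9, 70407692 to 70421547), a B cyclin whose loss mice tolerate, stood at 111.9 and 110.5 CPM in wild-type cluster 5. It was at 25.2 and 18.2 CPM in cluster 7 and 26.9 and 15.9 CPM in cluster 8, which overlapped. From there it was higher at each step, with 102.6 and 93.5 CPM in cluster 9, 147.8 and 138.4 CPM in cluster 10 and 226.5 and 203.2 CPM in cluster 11, and the libraries of these clusters did not overlap. Thinned to 3000 UMIs, 42.1 and 45.7% of cluster 11 cells had a *Ccnb2* UMI (unthinned 87.8 and 97.6%).

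*Ccnb3* (chromosome X, 6979652 to 7041619) was found mainly in clusters 8 to 10. It was at 3.63 to 8.91 CPM in wild-type clusters 1 to 4, at 36.6 and 42.0 CPM in cluster 7 and at 158 and 207 CPM in cluster 8. It was highest in cluster 9, at 332 and 398 CPM, then stood at 59.7 and 77.8 CPM in cluster 10 and at 1.31 and 1.87 CPM in cluster 11. With the listed cell-cycle genes allowed in the clustering, where clusters 9 and 10 matched the same cluster, the wild-type mean was 167.3 CPM instead of 364.6 CPM. The cluster 11 level is that of the myoid-like cells, 1.34 and 1.84 CPM. Thinned to 3000 UMIs, 59.8 and 67.9% of wild-type cluster 9 cells had a *Ccnb3* UMI (unthinned 93.1 and 93.5%). In cluster 10 the share was 17.7 and 19.1% (unthinned 47.8 and 47.0%). In cluster 11 it was 0 of 233 thinned cells in wild-type 1, which allows up to 1.29% of cells with a UMI at that depth, and 1.04% in wild-type 2 (unthinned 5.73 and 6.76%). Along the wild-type clusters, the high point of *Ccnb3* thus came before that of *Ccnb2*. In cluster 9, 51.4% of 37 and 72% of 93 *Ccnb1*-positive wild-type cells also had a *Ccnb3* UMI, and in cluster 10 these shares were 15.8% of 57 and 18.4% of 114, near the shares of all cells given above.

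*Ccnd2* and *Ccnd1* changed in opposite directions between the first clusters of spermatogonia. *Ccnd2* (chromosome 6, 127125162 to 127152193), a D cyclin of stem and progenitor cells in many tissues, stood at 383.2 and 388.7 CPM in undifferentiated-like cluster 1 and at 47.5 and 48.4 CPM in cluster 2. From cluster 3 on it was at 1.34 to 7.47 CPM in wild type, apart from the shallow cluster 4 at 160 and 153 CPM. *Ccnd1* (chromosome 7, 144929931 to 144939925), the D cyclin most often linked to growth factor signals, moved the other way, from 70.0 and 74.4 CPM in cluster 1 to 257 and 227 CPM in cluster 2 and 371.1 and 332.4 CPM in cluster 3. It was still at 78.7 and 78.4 CPM in the preleptotene-like cluster 7 and at 12.2 and 7.12 CPM in cluster 8. At 3000 UMIs, 57.8% of 90 and 61.6% of 112 *Ccnd1*-positive wild-type cells of cluster 1 had a *Ccnd2* UMI, near the 53.0 and 55.9% of all cells there, and in cluster 2 it was 10.8% of 166 and 5.97% of 268, against 13.4 and 10.6% of all cells. *Ccnd3* (chromosome 17, 47505051 to 47599691), the D cyclin best known from lymphocytes and muscle, was highest of the germ-cell clusters in cluster 1, at 87.4 and 84.6 CPM, and stood at 30.0 and 19.1 CPM in cluster 5 and 1.54 and 1.95 CPM in cluster 11.

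*Ccne2* (chromosome 4, 11191351 to 11204779), one of the pair of CDK2 partners of the G1/S transition, marked the preleptotene-like cells. It was at 17.5 and 19.1 CPM in wild-type cluster 1, 137.3 and 136.7 CPM in cluster 5 and 429.6 and 403.6 CPM in cluster 7. Cluster 8 held 215 and 184 CPM, cluster 9 held 135 and 125 CPM and cluster 10 held 85.2 and 73.1 CPM. Thinned to 3000 UMIs, 66.8 and 67.4% of cluster 7 cells had a *Ccne2* UMI (unthinned 96.05 and 93.7%), against 2.18 and 1.45% of myoid-like cells (unthinned 6.82 and 5.23%). *Ccne1* (chromosome 7, 38097984 to 38107534), the other CDK2 partner, had 2 high points, 51.1 and 45.7 CPM in cluster 3 and 53.4 and 47.0 CPM in cluster 8, which overlapped. Between them it was at 17.0 and 14.5 CPM in cluster 6 and at 34.6 and 38.2 CPM in cluster 7.

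*Ccna1* (chromosome 3, 55045469 to 55055501) was low in every group, at no more than 3.98 CPM in any library and cluster. Its highest wild-type mean was in cluster 2, at 3.08 and 2.84 CPM, from 29 and 47 UMIs in all cells of that cluster. In the pachytene-like cluster 11 it was at 3.31 and 1.19 CPM, from 43 and 14 UMIs, and these clusters overlapped. No *Ccna1* UMI was counted in cluster 10 in any library, where 3 counts in wild-type 2 would be 0.278 CPM. No cluster was named for a stage later than cluster 11.

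Of the 10 cyclins, *Ccnd2* and *Ccnd3* were the ones with a higher wild-type level in a somatic class than in any germ-cell cluster. *Ccnd2* reached 401.3 and 399.1 CPM in wild-type stroma-like cells, above cluster 1, and 283.6 and 315.9 CPM in myoid-like cells. *Ccnd3* was highest in the same classes, at 186 and 169 CPM in stroma-like and 128 and 122 CPM in myoid-like cells, above its level in any germ-cell cluster. Sertoli-like cells held *Ccnd2* at 58.0 and 68.7 CPM, *Ccnd1* at 20.6 and 14.2 CPM and *Ccnd3* at 6.13 and 3.74 CPM. In the wild-type Sertoli-like, myoid-like and stroma-like cells *Ccna2* was at 4.33 to 8.86 CPM and *Ccnb1* at 6.32 to 10.7 CPM per library. The means of these classes were at most 3.59% and 4.24% of the highest wild-type mean of each gene. Leydig-like cells were few, 21 to 72 per library, and were not tested. Their *Ccnd3* stood at 65.6 and 65.1 CPM in wild type versus 137.1 and 138.2 CPM in *Meioc*-null, from 41, 65, 53 and 234 UMIs.

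The genes whose wild-type profile over 14 clusters and classes was most like that of a cyclin, by Pearson correlation of log2(CPM + 1) among 10963 genes, are given as a description. *Ccnb1* was most like *Cdc25c*, the phosphatase that activates CDK1 (r = 0.968), *Ube2c*, an enzyme of cyclin destruction, and *Txndc9*. *Ccnb2* was most like *Cdc20*, the activator of the anaphase-promoting complex (r = 0.969), *Ogg1*, a DNA repair glycosylase, and *Gmfb*, and *Ccnb3* was most like *Pet2* (r = 0.977), *Rpgr* and *Gm960*. *Ccna2* was most like *Utp6* (r = 0.981) and the replication factor C genes *Rfc5* and *Rfc1*. *Ccne2* was most like *Srsf2*, a splicing factor (r = 0.977), *Gins2*, a replication factor, and the histone gene *Hist1h2aa*, and *Ccne1* was most like *Tatdn2* (r = 0.975), *Ndor1* and *BC055324*. Of the D cyclins, *Ccnd1* was most like *Ppp1r1b* (r = 0.984), *Psmd5* and *Runx3*, *Ccnd2* was most like *Rbms2* (r = 0.972), *Gpd1l* and *Prxl2b*, and *Ccnd3* was most like *Eva1b* (r = 0.974), *Bin1* and *Cyba*. The low *Ccna1* was most like *1700016K19Rik* (r = 0.924), *Scnm1* and *Zpr1*. The 14 points come from the same 2 libraries and differ in depth.

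The genotypes were compared within each cluster on UMIs summed per library, with edgeR's quasi-likelihood test over all genes of the cluster. A gene was called at a Benjamini-Hochberg adjusted p under 0.05 and an absolute log2 fold change (wild type/*Meioc*-null) over 0.1, so that negative values are higher in *Meioc*-null. Over the 10 germ-cell clusters tested, 19 of 92 cyclin tests were called, 17 of them higher in *Meioc*-null and 2 higher in wild type, where 13.4% of all gene tests were called. The calls were 0 of 47 in clusters 1 to 5, 1 of 9 in cluster 6 and 18 of 36 in clusters 7 to 10. All gene tests were unevenly spread as well, with 0.0305% called in clusters 1 to 5, 0.880% in cluster 6 and 36.1% in clusters 7 to 10. For all 21 cyclin calls, 2 somatic ones included, both *Meioc*-null libraries lay on the same side of both wild-type libraries. The direction within each of the 2 litters follows from this and is not a separate test.

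**Figure D3:**
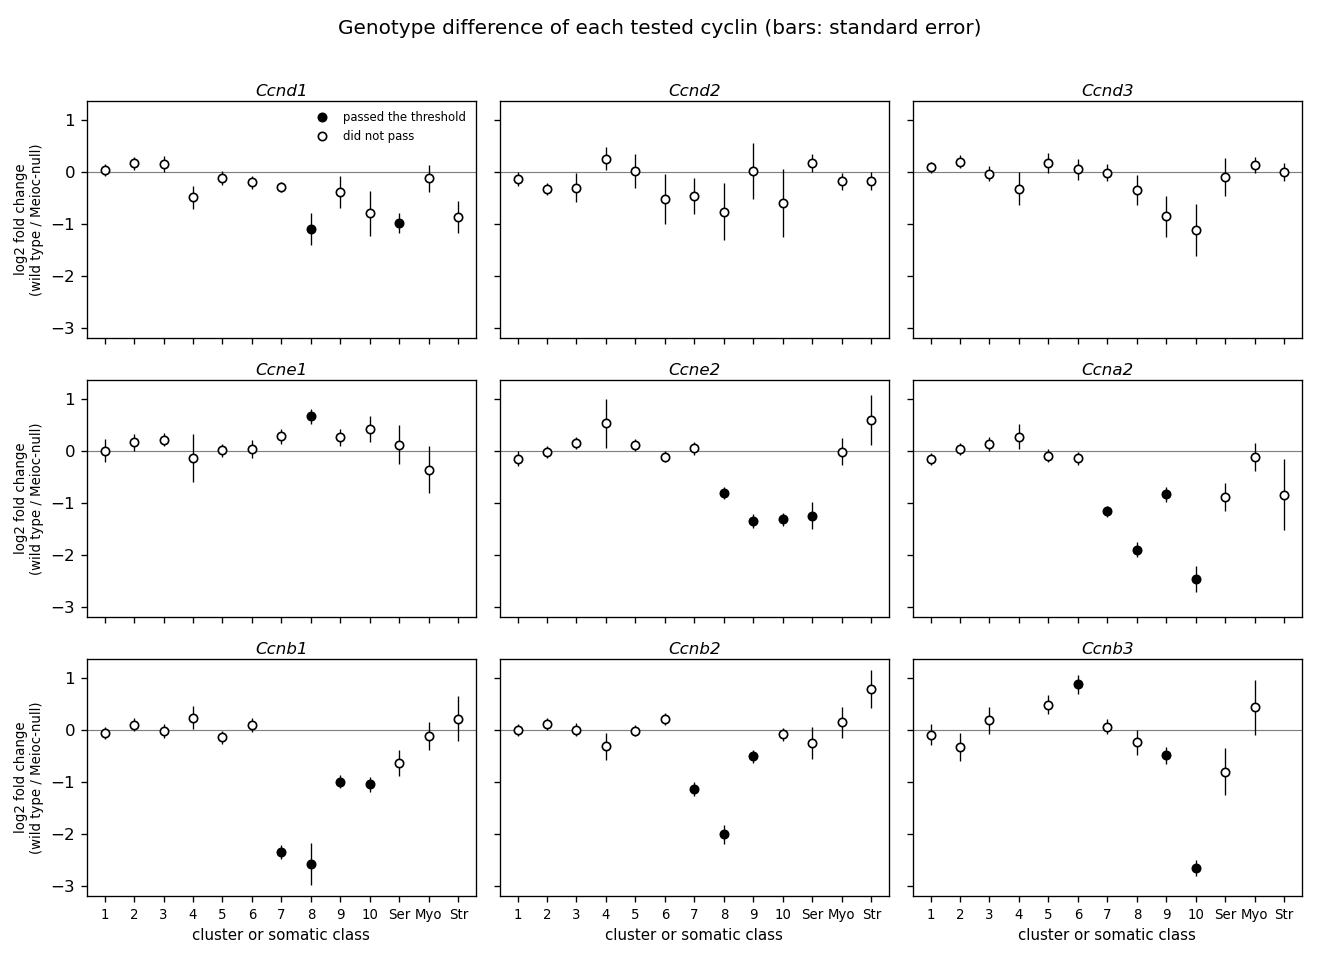
Log2 fold change (wild type/*Meioc*-null) of each cyclin except *Ccna1* in each cluster or class where it was tested. Bars are 1 standard error (2 libraries per genotype), and points are filled where the call passed. Ser, Myo and Str are Sertoli-like, myoid-like and stroma-like cells. *Ccna1*, tested in clusters 1, 2 and 3 and not called, is not drawn. Values lie between -0.52 and 0.89 in clusters 1 to 6 and reach -2.66 (*Ccnb3*, cluster 10) and -2.58 (*Ccnb1*, cluster 8) on the side higher in *Meioc*-null.

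In clusters 1 to 5 no cyclin was called, with or without cluster 4 (0 of 47 and 0 of 39 tests). The share of all genes called there was 0.00% for clusters 1 and 4, 0.0286% for cluster 2, 0.112% for cluster 3 and 0.00779% for cluster 5. At an unadjusted p under 0.05, edgeR gave 2 of these 47 cyclin tests, the DESeq2 Wald test called 0, and the edgeR fit with the litter as a replicate block called 1, *Ccnb3* in cluster 5. *Ccna2* in cluster 5 was 249.6 and 234.0 CPM in wild type versus 270.2 and 258.7 CPM in *Meioc*-null (log2 fold change -0.09, SE 0.13), and *Ccnd2* in cluster 1 was 383.2 and 388.7 CPM against 434.1 and 420.0 CPM (-0.14, SE 0.14). *Ccnd1* in cluster 3 was 371.1 and 332.4 CPM against 336.2 and 310.7 CPM (0.15, SE 0.15). In cluster 6, where 0.880% of all genes were called and 0.299% were called higher in wild type, *Ccnb3* alone was called among the A, B, D and E cyclins. Wild type held 22.8 and 29.2 CPM and *Meioc*-null 13.8 and 15.1 CPM, and the groups did not overlap (0.89, SE 0.18, adjusted p = 0.0289). The early-spermatocyte markers in cluster 6 summed to 1708 and 1456 CPM against 1337 and 1208 CPM, and the preleptotene markers to 989 and 1035 CPM against 1301 and 1119 CPM, and the part of these markers in the call was not tested. The call was lost with the DESeq2 Wald test, without doublet removal, with cells under 5% mitochondrial UMIs, without wild-type replicate 2 and without *Meioc*-null replicate 1.

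In the preleptotene-like cluster 7 the A and B cyclins of the mitotic cycle were higher in *Meioc*-null. *Ccnb1* was at 11.3 and 9.14 CPM in wild type versus 58.3 and 50.2 CPM in *Meioc*-null (log2 fold change -2.36, SE 0.14, adjusted p = 1.18e-06). *Ccna2* was at 42.0 and 36.9 CPM against 98.8 and 83.8 CPM (-1.16, SE 0.11, adjusted p = 3.26e-05). *Ccnb2* was at 25.2 and 18.2 CPM against 53.4 and 44.8 CPM (-1.13, SE 0.14, adjusted p = 0.000264). In each of these the *Meioc*-null libraries lay above both wild-type libraries. They were 3 of 9 cyclins tested, where 14.9% of all genes were called and 9.02% were called higher in *Meioc*-null. *Ccne2*, the cyclin that marked this cluster, was at 429.6 and 403.6 CPM against 437.9 and 392.6 CPM, overlapping (0.05, SE 0.13). *Ccnb3* was at 36.6 and 42.0 CPM against 36.1 and 41.4 CPM (0.07, SE 0.15). With the litter as a replicate block, *Ccnd1* (-0.28, adjusted p = 0.0114) and *Ccne1* (0.28, adjusted p = 0.0385) were called as well.

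Within *Meioc*-null cluster 7, *Ccnb1* was higher in cells with many UMIs of the G2/M phase list. Thinned to 3000 UMIs, 3.03 and 1.87% of wild-type cells versus 16.0 and 13.5% of *Meioc*-null cells had a *Ccnb1* UMI (unthinned 11.7, 8.0, 35.6 and 31.7%). In the 25% of *Meioc*-null cells with most UMIs of the G2/M phase list, *Ccnb1* averaged 0.432 and 0.385 UMIs per cell, against 0.0905 and 0.0799 in the bottom 50%, ratios of 4.77 and 4.82. In wild type the ratios were 0.667 and 1.54, with 0.0187 and 0.0275 UMIs per cell in the top 25% and 0.0281 and 0.0179 in the bottom 50%. *Meioc*-null cells thus held more *Ccnb1* than wild-type cells in both parts. Of *Meioc*-null cells with a *Ccna2* UMI, 19.5% of 394 and 15.9% of 239 had a *Ccnb1* UMI, near the 16.0 and 13.5% of all *Meioc*-null cells there. Of the *Meioc*-null germ cells 31.2 and 22.0% fell in cluster 7, against 17.3 and 11.9% of the wild-type ones. The summed G2/M phase list was at 8665 and 8941 CPM in wild type versus 12561 and 11854 CPM in *Meioc*-null, and the preleptotene markers at 3089 and 3102 CPM against 3543 and 3376 CPM, and their part in the cyclin differences was not tested.

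Cluster 8 held 6 calls among 9 cyclins tested, where 34.5% of all genes were called, 18.6% higher in *Meioc*-null and 15.9% higher in wild type. *Ccnb1* was at 38.7 and 19.1 CPM in wild type versus 225.4 and 133.7 CPM in *Meioc*-null (-2.58, SE 0.41, adjusted p = 0.0167). *Ccnb2* was at 26.9 and 15.9 CPM against 93.9 and 85.3 CPM (-2.0, SE 0.18, adjusted p = 2.23e-05), and *Ccna2* at 21.0 and 21.2 CPM against 92.2 and 81.3 CPM (-1.91, SE 0.14, adjusted p = 7.08e-06). *Ccne2* was at 215 and 184 CPM against 426 and 334 CPM (-0.81, SE 0.12). *Ccnd1* was at 12.2 and 7.12 CPM against 28.2 and 15.8 CPM (-1.10, SE 0.31, adjusted p = 0.0168), a call lost without wild-type replicate 2 or *Meioc*-null replicate 1. *Ccne1* was the member that moved the other way, at 53.4 and 47.0 CPM in wild type versus 33.4 and 34.9 CPM in *Meioc*-null (0.67, SE 0.15, adjusted p = 0.00423). *Ccnb3* was at 158 and 207 CPM against 197 and 274 CPM, overlapping (-0.24, SE 0.25), and was called with the litter as a replicate block (adjusted p = 0.0123) and without *Meioc*-null replicate 1 (-0.51, adjusted p = 0.00217). Without *Meioc*-null replicate 2 its direction turned (0.11). With at least 8 germ-cell clusters in place of 11, where clusters 8 and 9 matched the same cluster, *Ccnb1* was at -1.68, *Ccnb2* at -0.79 and *Ccne1* at 0.42.

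Thinned to 3000 UMIs, 8.47 and 4.14% of wild-type cluster 8 cells and 40.6 and 28.1% of *Meioc*-null ones had a *Ccnb1* UMI (unthinned 15.7, 11.1, 80.5 and 70.3%), and whether more cells or a higher level per cell gave the difference was not tested. The ratios of *Ccnb1* between *Meioc*-null cells with many and few G2/M list UMIs were 0.937 and 0.990, against 4.77 and 4.82 in cluster 7. In wild type the ratios were 6.73 and 0.139, so the libraries went opposite ways. The preleptotene-spermatocyte marker list summed to 1655 and 1642 CPM in wild-type cluster 8 and to 2823 and 2994 CPM in *Meioc*-null, and none of its 5 genes was without a UMI. The differentiating-spermatogonia list there summed to 430 and 388 CPM against 577 and 558 CPM, the early-spermatocyte list to 5114 and 4950 CPM against 5919 and 5574 CPM, and the pachytene list to 287 and 273 CPM against 198 and 204 CPM. The G2/M phase list was at 13483 and 13825 CPM against 17546 and 17278 CPM. The part of these lists in the cyclin differences was not tested.

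In early-spermatocyte-like cluster 9, 5 of 9 cyclins tested were called, all higher in *Meioc*-null, where 47.0% of all genes were called and 24.7% were called in that direction. *Ccne2* was at 135 and 125 CPM in wild type versus 371 and 292 CPM in *Meioc*-null (-1.34, SE 0.13, adjusted p = 5.44e-07). *Ccnb1* was at 68.4 and 53.2 CPM against 130.4 and 108.9 CPM (-1.0, SE 0.13, adjusted p = 7.44e-06), and *Ccna2* at 27.4 and 30.4 CPM against 55.6 and 49.8 CPM (-0.83, SE 0.14, adjusted p = 0.00014). The groups did not overlap for any of these. *Ccnb2* (-0.51, SE 0.12, adjusted p = 0.00223) and *Ccnb3* (-0.48, SE 0.16, adjusted p = 0.0213) differed less, and neither call held without wild-type replicate 2. *Ccnb3* also lost its call without wild-type replicate 1 and with at least 8 germ-cell clusters, and *Ccnb2* with listed genes allowed in the clustering. With listed genes allowed, where clusters 9 and 10 matched the same cluster, the differences were -1.5 for *Ccnb3* and -1.60 for *Ccna2*, values that then stand for cluster 10 too. *Ccnb3* itself was at 332 and 398 CPM in wild type versus 502 and 522 CPM in *Meioc*-null. Stage markers moved with these differences. In cluster 9 the differentiating-spermatogonia list summed to 242 and 208 CPM against 653 and 616 CPM in *Meioc*-null, the preleptotene list to 922 and 961 CPM against 2017 and 1945 CPM, and the pachytene list to 632 and 518 CPM against 325 and 336 CPM. The early-spermatocyte list summed to 5047 and 4572 CPM against 6363 and 5991 CPM, and the G2/M phase list to 10331 and 10410 CPM against 14956 and 14832 CPM. The part of these lists was not tested.

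Cluster 10 held 270 and 698 wild-type cells but 50 and 72 *Meioc*-null cells, so its *Meioc*-null values rest on few cells. Here 4 of 9 cyclins were called, all higher in *Meioc*-null, where 51.7% of all genes were called and 25.8% in that direction. *Ccnb3* showed the widest difference of the cyclins, at 59.7 and 77.8 CPM in wild type versus 456.9 and 464.7 CPM in *Meioc*-null (-2.66, SE 0.15, adjusted p = 3.7e-15). Thinned to 3000 UMIs, 17.7 and 19.1% of wild-type and 78.0 and 70.8% of *Meioc*-null cells had a *Ccnb3* UMI (unthinned 47.8, 47.0, 100 and 100%). The 95% exact binomial intervals of the thinned shares, which cover counting error only, were 13.3 to 22.8% and 16.3 to 22.3% in wild type and 64.0 to 88.5% and 58.9 to 81.0% in *Meioc*-null. In wild-type cluster 9 *Ccnb3* was at 332 and 398 CPM, above cluster 10. In *Meioc*-null it was at 502 and 522 CPM in cluster 9 and at 457 and 465 CPM in cluster 10. The pachytene list was higher in cluster 10 than in cluster 9 in wild type, at 930 and 814 CPM against 632 and 518 CPM. In *Meioc*-null it was lower in cluster 10, at 206 and 219 CPM against 325 and 336 CPM. Clusters 9 and 10 are thus not shown to be successive stages in *Meioc*-null. *Ccna2* was at 12.5 and 7.69 CPM against 68.7 and 46.0 CPM (-2.47, SE 0.25, adjusted p = 1.32e-09). *Ccne2* (-1.32, SE 0.13) and *Ccnb1* (-1.05, SE 0.14) were also higher in *Meioc*-null.

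*Ccnb2*, whose own wild-type level was highest in cluster 11, was at 147.8 and 138.4 CPM in wild-type cluster 10 and 159.8 and 156.3 CPM in *Meioc*-null and was not called (-0.08, SE 0.13, adjusted p = 0.617). *Ccnd3*, at 5.61 and 2.41 CPM against 10.1 and 7.07 CPM, was called only with the litter as a replicate block (-1.13, adjusted p = 0.0373), as it was in cluster 9 (-0.70, adjusted p = 0.0102). The cells of cluster 10 also differed between genotypes in stage markers. The differentiating-spermatogonia list (7 genes, all with UMIs) summed to 227 and 214 CPM in wild type and to 1084 and 1024 CPM in *Meioc*-null, and the preleptotene list (5 genes) to 688 and 739 CPM against 1086 and 1041 CPM. The pachytene list (7 genes) went the other way, at 930 and 814 CPM against 206 and 219 CPM, and the early-spermatocyte list (8 genes) overlapped, at 5368 and 4785 CPM against 5624 and 4948 CPM. The G2/M phase list was at 10523 and 10561 CPM in wild type against 16708 and 16125 CPM in *Meioc*-null. The part of these lists in the cyclin differences of cluster 10 was not tested.

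The genotype effect was also compared between groups of clusters, here called the stage difference, in 1 model with library as a term. The test took its mean over early-spermatocyte-like clusters 9 and 10 minus that over differentiating-like clusters 2, 3 and 5. Of 9 cyclins tested, 6 were called, all with a more negative log2 fold change in the early spermatocyte clusters, where 49.4% of 13156 genes were called and 24.8% in that direction. The differences were -1.63 (SE 0.15) for *Ccna2*, -1.61 (SE 0.13) for *Ccnb3* and -1.35 (SE 0.09) for *Ccne2*. They were -1.03 (SE 0.34, adjusted p = 0.0116) for *Ccnd3*, -0.95 (SE 0.16) for *Ccnb1* and -0.28 (SE 0.09, adjusted p = 0.0101) for *Ccnb2*. The *Ccnb2* call was lost without wild-type replicate 2 (-0.11) and without either *Meioc*-null replicate (-0.21 and -0.27), and the *Ccnd3* call without wild-type replicate 2 (-0.72), without *Meioc*-null replicate 1 (-0.53) and without doublet removal (-0.61). *Ccnd1* (-0.62, SE 0.27, adjusted p = 0.0534), *Ccnd2* (-0.09, SE 0.48) and *Ccne1* (0.27, SE 0.18) were not called, and *Ccna1* had too few UMIs to be tested.

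In somatic cells, which do not enter meiosis, 2 of 25 cyclin tests were called, where 0.249% of all gene tests were called. Both were in Sertoli-like cells (0.606% of all genes called, 0.299% higher in *Meioc*-null). *Ccne2* was at 6.30 and 8.27 CPM in wild type versus 19.9 and 15.8 CPM in *Meioc*-null (-1.25, SE 0.26, adjusted p = 0.00637). *Ccnd1* was at 20.6 and 14.2 CPM against 37.6 and 33.8 CPM (-0.98, SE 0.20, adjusted p = 0.00441). Both calls were lost with the DESeq2 Wald test, without doublet removal and with cells under 5% mitochondrial UMIs, where *Ccnd1* was at 0.19. *Ccnd1* also lost its call without wild-type replicate 2, and *Ccne2* without wild-type replicate 1 and without *Meioc*-null replicate 1. With the litter as a replicate block in edgeR, *Ccna2* was called in Sertoli-like cells as well (-0.85, SE 0.24, adjusted p = 0.0390).

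The Sertoli-like class joined 2 clusters of wild-type cells that differed in depth. One held 513 cells with a median of 2171 UMIs, the other 224 cells with a median of 37240 UMIs. Summed counts weigh the deep cells more, and the balance of these parts by library was not tested. Medians of the whole class were 2328 to 3609 UMIs per library, and many of its cells fell below 3000 UMIs. Among those that remained when thinned, 1.20 and 1.81% of wild-type and 6.78 and 4.49% of *Meioc*-null cells had a *Ccne2* UMI (unthinned 6.59, 7.56, 11.7 and 10.2%), against 1.45 to 2.92% of myoid-like cells over the 4 libraries. The preleptotene-spermatocyte markers (5 genes, all with UMIs) summed to 102 and 107 CPM in wild-type Sertoli-like cells and 209 and 148 CPM in *Meioc*-null, and the general germ-cell markers to 208 and 196 CPM against 219 and 212 CPM. The differentiating-spermatogonia list summed to 68.9 and 54.1 CPM against 76.5 and 88.5 CPM. The early-spermatocyte list was at 182 and 215 CPM against 231 and 246 CPM. The pachytene list went the other way, at 247 and 184 CPM against 149 and 158 CPM, and the undifferentiated-spermatogonia list overlapped. Macrophage markers summed to 22.3 CPM in *Meioc*-null 1 and to 0.960 to 1.02 CPM in the other libraries. Of the G2/M phase list, 3 of 45 genes were higher in *Meioc*-null Sertoli-like cells and none lower, among them *Mki67*, a marker of cycling cells (-1.36, SE 0.21), and *Cenpe*, a kinetochore motor (-1.21, SE 0.23). The part of these cells and transcripts in the cyclin calls was not tested. No cyclin was called in myoid-like cells (0.0951% of all genes called) or stroma-like cells (0.0475%). In these classes edgeR gave 2 of 16 cyclin tests an unadjusted p under 0.05, and the DESeq2 Wald test called 0.

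The partners and regulators of the cyclins, from lists chosen for their roles, showed calls in the same clusters. In cluster 7, where 14.9% of all genes were called and 9.02% were higher in *Meioc*-null, 31 of 46 tested G2/M phase genes were called, all higher in *Meioc*-null (median log2 fold change -0.60, against -0.0046 over all genes), and of the cyclin-dependent kinases and their CKS subunits 2 of 6, *Cks2* (-2.11, SE 0.13) and *Cdk1*, the partner of cyclin B (-1.30, SE 0.13). Of the cyclin destruction list, 5 of 9 were higher in *Meioc*-null cluster 7, with *Ube2c* (-2.02, SE 0.11) and *Cdc20* (-1.30, SE 0.11) changed most. Of the S phase list 6 of 42 were called there, near the share of all genes, with 3 in each direction.

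In cluster 8, where 34.5% of all genes were called (18.6% higher in *Meioc*-null and 15.9% higher in wild type), most calls of the 2 phase lists had opposite directions. All 31 G2/M phase genes called, of 46 tested, were higher in *Meioc*-null (median -0.58, against -0.04 over all genes), whereas 17 of the 22 S phase genes called, of 42 tested, were higher in wild type (median 0.24). *Cdk2*, the partner of cyclins A and E, was higher in wild type (0.50, SE 0.13), as was *E2f1*, a transcription factor for G1/S genes (1.47, SE 0.15). *Cdk1* (-1.82, SE 0.14) and *Cdc25c* (-2.39, SE 0.30) were higher in *Meioc*-null. The *Ccne1* difference thus had the direction of most of the S phase genes called in this cluster, and that of *Ccne2* had the other direction.

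In clusters 9 and 10, 47.0 and 51.7% of all genes were called, 24.7 and 25.8% higher in *Meioc*-null. Of the S phase list 20 of 42 and 25 of 39 tested genes were called there, 15 and 22 of them higher in *Meioc*-null, and of the G2/M phase list 29 of 46 and 38 of 46 were called, 28 and 34 of them higher in *Meioc*-null. All 4 tested genes of the CDK phosphorylation list were higher in *Meioc*-null in each of these clusters, led by *Cdc25c* (-1.92, SE 0.26 and -2.47, SE 0.28). Among the CDK inhibitors, *Cdkn2a*, which encodes the CDK4 and CDK6 inhibitor p16 and p19ARF, was higher in *Meioc*-null (-3.10, SE 0.14 in cluster 9 and -4.14, SE 0.21 in cluster 10), while *Cdkn2c*, another inhibitor of CDK4 and CDK6, was higher in wild type in cluster 10 (0.99, SE 0.23). *Cdc20* was higher in *Meioc*-null in clusters 7 and 8 and higher in wild type in cluster 10 (0.99, SE 0.14). Of 17 other cyclins, 9 of 15 tested were called in cluster 9 and 6 of 14 in cluster 10, shares near those of all genes (47.0 and 51.7%). Among them were *Ccng1*, a p53 target (-2.08, SE 0.20 and -3.75, SE 0.20), and *Cntd1*, a cyclin-like gene of meiotic crossover formation (1.84, SE 0.15 in cluster 10). *Ccng1* was also called in cluster 6, higher in *Meioc*-null (-0.65, SE 0.12), and *Cntd1* in Sertoli-like cells, higher in wild type (1.52, SE 0.38).

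The kinases and their direct regulators held further calls, in clusters 8, 9 and 10 where 34.5, 47.0 and 51.7% of all genes were called. Of the kinase list 4 of 6, 4 of 5 and 2 of 6 tested genes were called there. The inhibitors had 3 of 6, 4 of 6 and 5 of 6, and the cyclin destruction list 5 of 9, 4 of 9 and 4 of 9. The CDK phosphorylation list had 3 of 5 in cluster 8, and 2 of 5 in cluster 7, where 14.9% of all genes were called. *Cks1b*, a kinase subunit like *Cks2*, was higher in *Meioc*-null clusters 9 (-1.04, SE 0.13) and 10 (-0.96, SE 0.14), as was *Cdk4*, the partner of the D cyclins (-0.77, SE 0.14 and -0.80, SE 0.16). Of the inhibitors, *Cdkn1a* in cluster 9 (-2.56, SE 0.32) and *Cdkn2b* in cluster 10 (-2.91, SE 0.51) were higher in *Meioc*-null, while *Cdkn1c* in cluster 8 was higher in wild type (1.55, SE 0.50). *Cdc25a*, a CDK-activating phosphatase, was higher in *Meioc*-null clusters 9 (-1.22) and 10 (-1.86), its relative *Cdc25b* in cluster 8 (-1.33) and *Wee1*, a kinase that inhibits CDK1, in cluster 7 (-0.54). *Fbxo5*, an inhibitor of the anaphase-promoting complex, was higher in wild-type cluster 8 (0.48) and in *Meioc*-null clusters 9 (-0.66) and 10 (-2.05). The spindle checkpoint genes *Bub1b* (0.58 in cluster 9 and 0.78 in cluster 10) and *Mad2l1* (0.55 in cluster 9) were higher in wild type.

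Of the factors that control cyclin genes, 5 of 10, 4 of 10, 5 of 10 and 6 of 9 tested were called in clusters 7 to 10. The shares of all genes called there were 14.9, 34.5, 47.0 and 51.7%. *Lin54*, a DNA-binding subunit of the MuvB complex, was higher in *Meioc*-null clusters 7 to 10, at -0.97, -1.24, -1.33 and -1.57. *Rb1* in cluster 7 (-0.57), *Foxm1*, an activator of G2/M genes, in cluster 8 (-0.95) and *Mybl1* in cluster 9 (-0.73) had the same direction. *E2f4* (0.61 in cluster 9 and 1.30 in cluster 10) and *Lin9* (0.41 in cluster 10) were higher in wild type, and *E2f1* was higher in wild-type clusters 7 to 9 but in *Meioc*-null cluster 10 (-1.12). Of the other cyclins, 2 of 16 tested were called in cluster 7 and 3 of 15 in cluster 8, against 14.9 and 34.5% of all genes. *Ccnf* was higher in *Meioc*-null clusters 7 to 10 (-1.27, -1.27, -1.29 and -1.66) and *Ccnt1* in clusters 7 (-0.73) and 8 (-0.59). *Ccnk* (0.68 in cluster 9 and 0.89 in cluster 10) and *Ccnyl1* (0.78 in cluster 9) were higher in wild type.

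Some genes of the phase lists rest on few UMIs. *Psrc1*, of the G2/M list, had 0 and 1 UMIs in wild-type cluster 10 and 18 and 30 UMIs, or 20.3 and 21.2 CPM, in *Meioc*-null, and *Gas2l3* had 3 and 3 UMIs in wild-type cluster 8 against 57 and 46, so no fold is given for either there. In cluster 9 *Psrc1* (-2.70, SE 0.40) and *Gas2l3* (-2.28, SE 0.32) were higher in *Meioc*-null, as were *Aurka*, a mitotic kinase, in cluster 7 (-2.30, SE 0.19) and *Cenpa*, the centromeric histone, in clusters 8 (-3.27, SE 0.13) and 10 (-3.35, SE 0.17). *Ckap2* in cluster 9 (0.56), *Nek2*, a centrosomal kinase (1.5), and *Smc4*, a condensin subunit (1.07), both in cluster 10, were higher in wild type. Of the S phase list, *Cdca7* was higher in *Meioc*-null clusters 7 (-0.93), 8 (-1.52) and 10 (-2.18), *Usp1* in clusters 8 (-1.12) and 10 (-2.75), *E2f8* in clusters 7 (-1.59) and 9 (-1.95) and *Rrm2*, a ribonucleotide reductase subunit, in cluster 9 (-1.71). Higher in wild type were *Mcm4* and *Gins2* in cluster 7 (both 0.40), *Ung*, a DNA repair glycosylase, in cluster 8 (1.02), *Chaf1b*, a histone chaperone subunit, in clusters 8 (1.49) and 9 (0.85), *Tipin* in cluster 9 (0.42), and *Dtl* (0.63) and *Clspn* (0.51) in cluster 10.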

How the data were processed

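Cells of 1 testis per pup were profiled with 10x Genomics 3′ chemistry. The authors ran Cell Ranger 4.0.0 against mm10 and deposited its raw UMI counts, not normalized. Cell Ranger counts reads assigned to 1 gene, so reads shared with a near-identical copy are left out. Gene positions are from the GRCm38 annotation. The cyclins, lists, clusters and tests were chosen with earlier results of these data known. *Meioc* counts were not used to check the genotype labels, because no source used here gives the deleted part of the gene.

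Barcodes with more than 1000 detected genes and under 10% mitochondrial UMIs were kept, and the top-scoring 0.8% per 1000 barcodes were removed as doublets. Wild-type cells were clustered with scanpy 1.11.5 (2000 variable genes without cyclins or listed cell-cycle genes, 30 principal components, 20 neighbours), and every cell took the commonest cluster of its 30 nearest wild-type cells. A cluster was named "like" a type from 3 or more markers, each detected in at least 25% of its cells, and the rule on ties between types was set after the clusters were seen. All 10 cyclins are named in the text, with the 3 genes most like each of them and, from each pathway list and cluster, the 2 genes with the largest folds in each direction among those called.

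For each library and cluster, raw counts were added up, and clusters with at least 50 cells in each of the 4 libraries were tested in R 4.3.3 with edgeR 4.0.16 (TMM, robust quasi-likelihood, genotype as the only term, where the study compared single cells with Seurat, genes with a mean of at least 10 summed UMIs). Kept cells held 97377638 to 129313522 UMIs per library. With 2 pups per genotype an exact permutation test of single values cannot go below p = 0.333, so none is given. Replicate numbers pair the pups, since the labels give each number to 1 batch and describe a batch as a pair of littermates. Deviations of same-numbered libraries correlated at 0.145 to 0.367 in 11 of 13 groups, at -0.183 in cluster 4 and at -0.0435 in stroma-like cells. On data simulated for clusters 3, 7 and 9 and Sertoli-like cells, 77 to 86% of 100 genes changed 2-fold were recovered, with 5 to 14 false calls per run. The simulation gave all genes the same fixed dispersion and had no litter effect. It is thus a check of the fit and not a measure of sensitivity in the real data. Alternatives were DESeq2 1.42.0, other filters, the replicate block, other cell filters, other clusterings and leaving out each library.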

Additional observations from a re-analysis of the deposited data

Results flagged for a closer look

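For 6 cyclins the genotype effect differed between groups of clusters by a test of the difference itself (early-spermatocyte-like clusters 9 and 10 minus differentiating-like clusters 2, 3 and 5, log2 scale, edgeR). The differences were -1.63 for *Ccna2* (adjusted p = 1.89e-11), -1.61 for *Ccnb3* (adjusted p = 2.73e-13), -1.35 for *Ccne2* (adjusted p = 3.03e-16), -1.03 for *Ccnd3* (adjusted p = 0.0116), -0.95 for *Ccnb1* (adjusted p = 3.81e-05) and -0.28 for *Ccnb2* (adjusted p = 0.0101). The log2 fold changes were lower in clusters 9 and 10 for all 6, and the *Ccnb2* and *Ccnd3* calls were lost without wild-type replicate 2 (-0.11 and -0.72). This was a comparison where 49.4% of all genes tested differed between the groups of clusters. Cluster 10, with 50 and 72 *Meioc*-null cells, weighed as much as cluster 9 in it, and it was not run without cluster 10. With 2 libraries per genotype, no group was large enough to be searched for a library that stands apart.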

How the results depend on the processing

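The main choices gave 19 cyclin calls in germ-cell clusters, 2 in somatic classes, 15773 gene calls in germ-cell clusters and 6 cyclins with a stage difference. With cells under 5% mitochondrial UMIs, germ-cell clusters gave 0 cyclin calls and 15 gene calls, because 3 clusters (4, 5 and 6) then had enough cells, and the stage difference could not be run. Somatic calls fell to 0 with the DESeq2 Wald test, with the filter at 25% of cells, without doublet removal and with cells under 5% mitochondrial UMIs. Leaving out 1 library gave 15 to 20 germ-cell cyclin calls, 1 to 2 somatic calls, 11163 to 14461 gene calls and 4 to 7 stage differences. The remaining settings gave 18 to 25 germ-cell cyclin calls. With the replicate block, which pairs littermates, the counts were 25, 3 and 22342. All 21 cyclin calls held and 7 were added, among them *Ccnb3* in cluster 5 (0.50) and *Ccna2* in Sertoli-like cells (-0.85). The block leaves 1 residual degree of freedom with 4 libraries, so its p-values rest largely on dispersion estimated from other genes. No block was fitted to the stage difference, whose model has library as a term. Without clusters 4 and 10, an alternative chosen after seeing the data, 15 germ-cell cyclin calls were left. Direction reversed in 4 of the single values, none of them called after the change: *Ccnb3* in cluster 8 without *Meioc*-null replicate 2 (0.11, against -0.51 without replicate 1), *Ccna2* (0.24) and *Ccnd1* (0.19) in Sertoli-like cells under 5% mitochondrial UMIs, and the *Ccnd1* stage difference without doublet removal (0.31). The cause was not tested. Of 54 recomputed peak levels, 14 moved by more than the standard deviation of the 2 wild-type libraries. The values without wild-type replicate 1 or without wild-type replicate 2 are among the 54 but could not move by this measure. Dropping 1 of 2 values always shifts their mean by less than their standard deviation. The furthest move was that of *Ccnb3* in cluster 9, to 167.3 CPM with listed genes allowed in the clustering, where clusters 9 and 10 matched the same cluster. Low-count members, *Ccna1* above all, are limited by depth.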
